A study of Mus musculus with 16 samples.

Results

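The genes described here are the organic solute carriers of the Slco and Slc22a families and the ABC exporters of the Abca, Abcb, Abcc and Abcg families in mouse liver. They were chosen by gene symbol. Of 15544 genes in the table, 57 carry a symbol of these families. Slco1a1, Abcb11, Abcg5 and Abcg8 were set aside by rule, and Abcc12, Abca12 and Slc22a13b did not reach a value of 1 in any library (highest 0.334, 0.265 and 0.860). The remaining 50 genes reached 1 or more in at least 4 of 16 libraries. They comprise 15 Slc22a, 10 Abca, 8 Abcb, 8 Abcc, 6 Slco and 3 Abcg genes. The rule itself reads symbols and levels over all libraries.

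Hepatocytes take up bile acids, bilirubin, steroid conjugates and drugs from blood through solute carriers on the membrane that faces the sinusoid. Slco genes encode organic anion transporting polypeptides, and Slc22a genes encode carriers of organic cations, organic anions, carnitine and related compounds. ABC transporters use ATP to move substrates out of the cell or across the membranes of organelles. In hepatocytes some of them face the bile canaliculus, some return conjugates to blood, and some move lipids.

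Bulk RNA was sequenced from the livers of 16 female mice aged 27 weeks, with 4 mice in each of 4 groups. Controls were Esr1fl/fl mice, which carry a floxed gene for oestrogen receptor alpha (ERα). Mutants were Esr1Nkx2-1Cre mice, which carry the same floxed gene and a Cre recombinase under Nkx2-1 that removes ERα from part of the hypothalamus. The study examined them for their high bone mass. Each genotype was fed either chow or, for 17 weeks, a high-fat diet (HFD). The Cre is not directed at hepatocytes, so Esr1 in liver does not check the genotype labels, and on chow its level ranged from 7.59 to 15.9 in controls and from 8.02 to 19.6 in mutants. On HFD the range was 6.14 to 8.09 in controls and 6.42 to 22.9 in mutants.

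Values are size-factor-adjusted TPM, a length-adjusted share of each library, so levels can be compared between genes. Column totals ranged from 905897 to 1119700, between 11834 and 12443 genes reached 1 in a library, and sequencing depth is unknown. All 6 hepatocyte markers were present, with a summed level of 60054 to 99438, and the measured adipocyte marker did not exceed 0.149. The neutrophil genes S100a8 and S100a9 summed to between 21.04 and 5333 in mutants on chow, against 1.77 to 7.81 in controls on chow. In bulk tissue, fewer cells of a type and less RNA per cell cannot be told apart. Replicate numbers follow sample order and only name a liver.

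Summed over the 50 genes, the level on chow was 2414 ± 164 (SD, n = 4) in controls and 2413 ± 197 in mutants. On HFD it was 2337 ± 363 and 2559 ± 273. The mean share of a library's total was between 0.224% and 0.259% in the 4 groups. Single genes spanned a wide range. The mean over all livers was at least 100 for 9 genes, between 10 and 100 for 17 and under 10 for 24. Slco1b2 was highest at 502.1 (range 322.2 to 679.1), and Slc22a17, a receptor for lipocalin-2, was lowest at 1.15 (range 0.520 to 1.90).

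**Figure D1:**
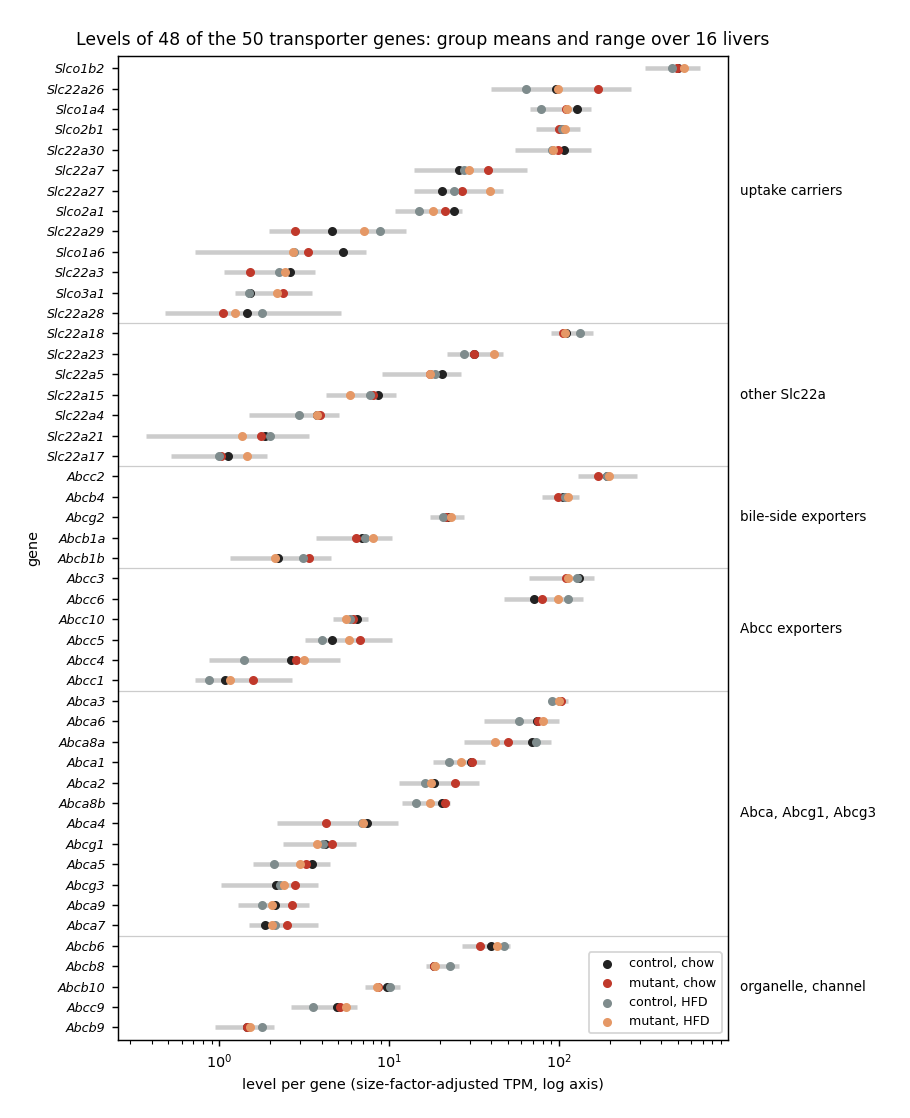
Levels of 48 of the 50 transporter genes, grouped by role, in size-factor-adjusted TPM on a log axis; dots are means of 4 livers for each group and grey bars span the lowest and highest of 16 livers. Slco1b2 averaged 502.1 and Slc22a17 1.15, and the 4 group means of most genes lie close together beside this range.

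Carriers of uptake from blood made up the largest share. Slco1b2, which takes up bile acids, bilirubin and many drugs, averaged between 461 ± 155 (controls, HFD) and 548 ± 98.6 (mutants, HFD). Slco1a4, a carrier of bile acids and steroid conjugates, and Slco2b1, a carrier of steroid conjugates, averaged 106.8 and 104.7 over all livers. Neighbours in this order from Slc22a18 to Slco2b1 had means between 104.7 and 114.2 with standard deviations over livers of 16.5 to 54.4, so their order lay within that spread. Slc22a7 (Oat2, an organic anion transporter), the prostaglandin transporter Slco2a1, and Slc22a27 stood between 19.6 and 30.3. Slco1a6, Slc22a3 (Oct3, a carrier of monoamines and other cations) and Slco3a1 stood between 1.90 and 3.54.

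Among exporters, Abcc2 (Mrp2), which moves bilirubin and drug conjugates into bile, averaged 187.4. Abcb4, which moves phosphatidylcholine into bile, averaged 106.3, and Abcg2, an exporter of urate and drugs, 21.9. Abcb1a and Abcb1b, the rodent P-glycoproteins, were at 7.15 and 2.70. Of the Abcc genes that return conjugates to blood or serve other roles, Abcc3 (Mrp3) averaged 120.3 and Abcc6, which supports ATP release from hepatocytes, 90.5. Abcc10, Abcc5, Abcc4 (Mrp4) and Abcc1 (Mrp1) were between 1.17 and 6.01.

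Among lipid transporters, Abca3, which is known for surfactant phospholipid in lung, averaged 98.7 and varied least for its level, with a range of 89.3 to 112.5. Abca6 averaged 71.7 and Abca8a 58.6. Abca1, which passes cholesterol to apolipoprotein A-I, was at 27.5 and Abcg1, also a cholesterol exporter, at 4.15. The remaining members act mainly in organelles or with other partners. Abcb6, a porphyrin transporter, averaged 41.0, and the mitochondrial Abcb8 and Abcb10 were at 19.6 and 9.25. Slc22a5, the carnitine transporter, was at 18.4 and Slc22a4, a carrier of ergothioneine, at 3.59. Abcc9, a subunit of potassium channels, was at 4.79.

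By position, 24 of the 50 genes lay in 7 clusters in which neighbouring members were at most 500 kb apart on GRCm38. The largest held 5 genes each. Abca8b, Abca8a, Abca9, Abca6 and Abca5 lie at chr11:109932190-110337716, and their mean levels over 16 livers were 18.4, 58.6, 2.16, 71.7 and 2.96. Slc22a26, Slc22a27, Slc22a28, Slc22a29 and Slc22a30, which belong to the organic anion transporters, lie at chr19:7781041-8405111 with levels of 107.1, 27.7, 1.38, 5.83 and 97.3. Another group at chr6:141629518-142702315 holds Slco1b2, Slco1a4, Slco1a6 and Abcc9.

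The chromosome 19 genes have closely related transcripts. Slc22a28 and Slc22a30 matched at 98.9% of 1485 aligned bases, and Slc22a27 and Slc22a29 at 96.8% of 2088. Reads of such pairs are divided by estimation in kallisto, so the division of signal between the members of each pair is uncertain. The same holds to a lesser degree for Slc22a5 and Slc22a21 (90.2%), Abcb1a and Abcb1b (87.2%) and Slco1a4 and Slco1a6 (81.4%).

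The windows of 250 bases before the start site of 3 of these genes are shown because Slc22a30 and Slc22a28 share nearly all of theirs while their listed levels were 97.3 and 1.38. All are on the minus strand of chromosome 19 in RefSeq GRCm38.p6, at chr19:8405106-8405355 for Slc22a30, chr19:8131983-8132232 for Slc22a28 and chr19:8218901-8219150 for Slc22a29. They are written 5′ to 3′, and capitals mark the longest run that the first pair shares and, for Slc22a29, the longest run shared with Slc22a30.
Slc22a30: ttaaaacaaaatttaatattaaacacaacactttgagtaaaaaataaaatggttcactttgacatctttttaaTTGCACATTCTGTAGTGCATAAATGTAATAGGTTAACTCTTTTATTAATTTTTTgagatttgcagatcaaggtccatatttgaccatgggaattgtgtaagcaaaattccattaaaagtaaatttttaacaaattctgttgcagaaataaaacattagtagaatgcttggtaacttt
Slc22a28: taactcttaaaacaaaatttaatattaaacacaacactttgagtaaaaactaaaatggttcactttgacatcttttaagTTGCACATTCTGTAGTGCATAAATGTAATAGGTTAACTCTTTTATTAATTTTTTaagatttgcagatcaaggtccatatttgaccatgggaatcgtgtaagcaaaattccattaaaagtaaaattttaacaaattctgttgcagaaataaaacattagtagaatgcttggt
Slc22a29: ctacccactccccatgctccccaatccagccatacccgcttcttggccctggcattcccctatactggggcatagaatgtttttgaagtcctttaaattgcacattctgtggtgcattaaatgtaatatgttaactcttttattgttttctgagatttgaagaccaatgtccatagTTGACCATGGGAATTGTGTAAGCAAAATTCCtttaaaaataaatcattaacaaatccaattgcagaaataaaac
Slc22a30 and Slc22a28 were identical at 238 of 244 aligned bases (97.5%), with a longest shared run of 54. Slc22a29 was identical to Slc22a30 at 173 of 207 aligned bases (83.6%), with a longest shared run of 31. The share of transcript sequence was also high for this pair, at 88.9% of 1495 aligned bases.

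Of the 50 genes, 39 had a window in the RefSeq table, and 4 of these (10.3%) held the letters TTCNNNGAA, the form bound by STAT5, against 7.2% of 27025 windows. The 4 were Abcc5, Slc22a15, Slc22a26 and Slco1b2. The match is the same on both strands. The windows of Slco1b2 (chr6:141629268-141629517, plus strand) and Slc22a26 (chr19:7802668-7802917, minus strand), the highest members of the chromosome 6 and chromosome 19 clusters, are shown with the match in capitals.
Slco1b2: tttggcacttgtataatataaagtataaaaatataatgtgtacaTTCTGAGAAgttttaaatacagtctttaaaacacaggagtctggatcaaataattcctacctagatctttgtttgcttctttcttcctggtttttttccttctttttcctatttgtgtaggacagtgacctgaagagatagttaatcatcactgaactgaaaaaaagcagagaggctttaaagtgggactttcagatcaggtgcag
Slc22a26: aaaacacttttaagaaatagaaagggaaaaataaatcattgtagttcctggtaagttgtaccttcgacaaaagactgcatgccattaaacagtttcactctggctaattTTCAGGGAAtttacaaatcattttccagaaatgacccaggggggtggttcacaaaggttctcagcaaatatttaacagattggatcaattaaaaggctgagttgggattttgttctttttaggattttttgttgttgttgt
The letters TGACNNNGC of the antioxidant element, sought on both strands, were in 4 windows (10.3%), of Abcc10, Abcc2, Abcc4 and Slc22a27, against 10.1% of all windows. TATAAA on the gene's strand was in 5 (12.8%) against 8.1%. A direct repeat of AGGTCA with a spacer of 1 base was in 0 of the 39 windows and in 10 of all 27025, too few to compare. A match is a description of these letters only.

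Among HFD livers, 18 of the 50 genes differed with the numbers in the library titles, and 0 with genotype, at an adjusted p under 0.05. HFD titles fall into L231 to L234, which are 3 controls and mutant replicate 1, and L338 to L342, which are mutant replicates 2 to 4 and control replicate 4. The labels do not say what the numbers mean. With genotype in the same limma fit, a contrast added after the data were seen, this was 36% of the genes, beside 25.2% of 12704 genes tested. Of these, 16 were higher in L338 to L342 and 2, Slc22a18 and Abcb8, were lower. Among all genes the called differences were more evenly divided, at 13.5% higher and 11.6% lower.

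Abca6 differed most clearly. It was at 36.1, 47.2, 50.5 and 46.7 in L231 to L234 and at 98.4, 87.1, 99.6 and 86.5 in L338 to L342, a log2 difference of 1.04 ± 0.12 (SE; adjusted p = 0.000208). Control replicate 4 stood with the mutants of its series and mutant replicate 1 with the controls. Slco1b2 was at 322.2, 388.8, 452.1 and 410.7 in the first series and at 679.1, 632.2, 604.8 and 545.1 in the second (0.67 ± 0.13, adjusted p = 0.00254). Slco1a4 averaged 70.04 and 119.2 (0.69 ± 0.15, adjusted p = 0.00665), Slco2a1 12.3 and 20.9 (0.79 ± 0.16, adjusted p = 0.00395) and Slc22a23, a carrier of unknown substrate, 25.7 and 43.4 (0.61 ± 0.15, adjusted p = 0.00954). None of these series overlapped. Other genes higher in L338 to L342 included Slc22a28, Abcg2, Abca8b, Abcc9, Abca5, Slco2b1, Abca1, Slc22a26, Abcb1b and Slc22a30.

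In chow livers the title numbers fall into L314 to L316 and L324 to L328. No gene of the 50 passed the adjusted test there, and 7 had an unadjusted p under 0.05 (14%; all genes 11.6%). Slco1b2 and Abca6 were again higher in the higher-numbered series, with means of 543.4 against 427.0 (log2 difference 0.39 ± 0.12) and 80.7 against 63.6 (0.35 ± 0.11), and the series did not overlap. Their adjusted p-values were 0.258 and 0.272. Because each HFD series holds mostly 1 genotype, and each series lies within 1 diet, the title series moves with genotype on HFD, and it cannot be told apart from diet in the diet contrasts.

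**Figure D2:**
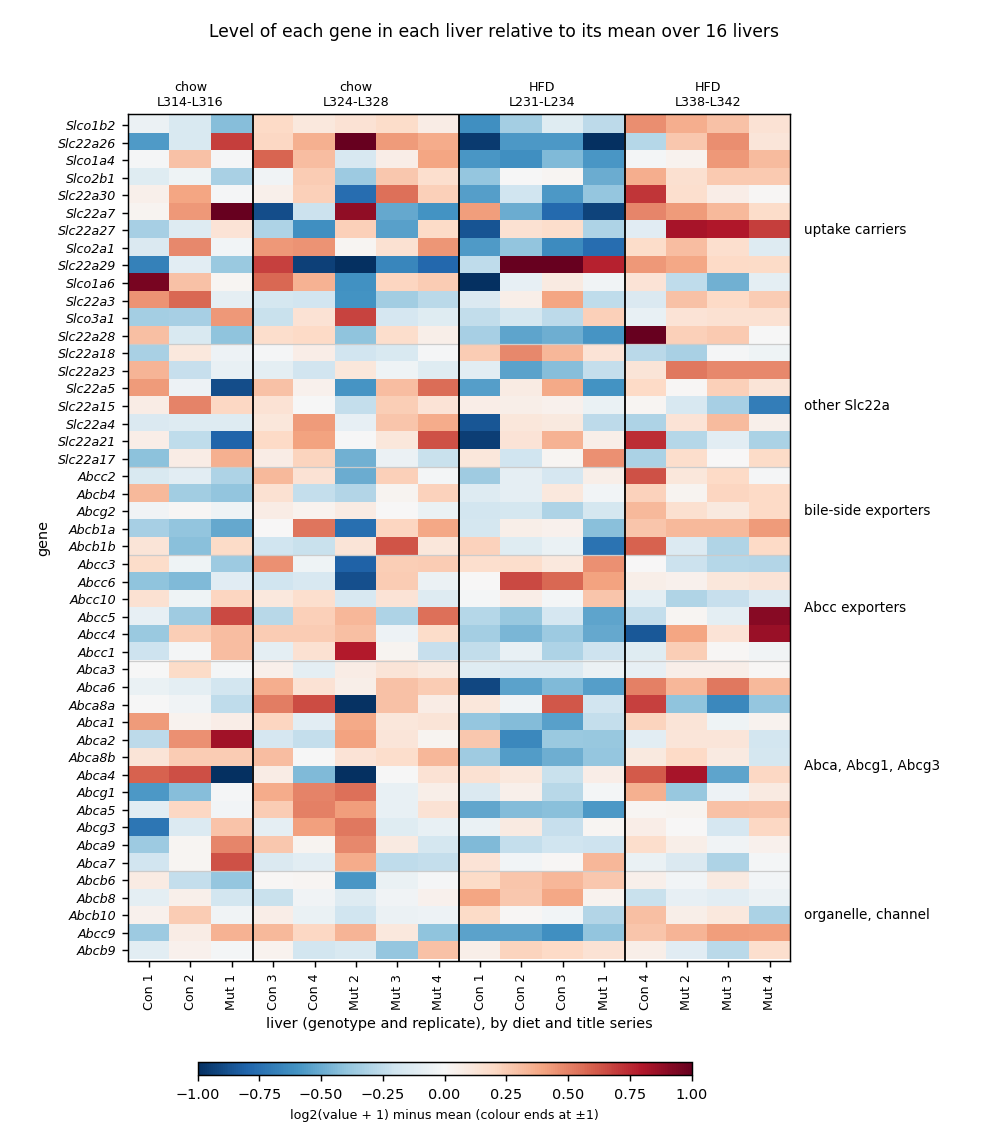
Level of each of 48 of the 50 genes (rows, by role) in each of 16 livers (columns, by diet and title series) as log2(value + 1) minus the gene's mean over all livers, with red higher and blue lower and colours ending at 1 on either side. In HFD livers, 15 of the genes shown were higher and 2 lower in L338-L342 than in L231-L234 after adjustment. Control replicate 4 lies with the mutants of its series for genes such as Abca6 and Slco1b2. It lies apart from them for Abca8a (90.3 against a mutant mean of 39.9) and Abcc4 (0.871 against 3.75).

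The first comparison of the design asked whether loss of ERα in the hypothalamus goes with altered transporter RNA in liver on chow. None of the 50 genes passed the adjusted test in limma, beside 0.0236% of all genes tested (3 of 12704). An unadjusted p under 0.05 was reached by 4 genes (8%; all genes 6.08%), of which 2 were higher in mutants (all genes 4.23%) and 2 lower (1.85%). The groups did not overlap for 2 genes (4%; all genes 3.05%). The median log2 difference was -0.02, beside 0.02 for all genes, with 24 genes above 0 and 26 below.

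Slc22a26 was at 64.8, 86.5, 111.2 and 123.4 in controls and at 155.6, 267.2, 129.3 and 124.8 in mutants. The groups did not overlap, by a narrow margin, and mutant replicate 2 was highest. The log2 difference was 0.77 ± 0.34 (SE, 95% interval 0.06 to 1.49, limma adjusted p = 0.804, exact two-sided permutation p = 0.0286, the smallest that 4 against 4 livers allow). Slco1a6, a close relative of Slco1a4, was the other gene without overlap, at 4.27 to 7.29 in controls and 1.82 to 4.14 in mutants, with a log2 difference of -0.57.

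Slc22a3 was at 3.26, 3.65, 1.77 and 1.74 in controls and at 1.93, 1.06, 1.46 and 1.58 in mutants (-0.49 ± 0.20, adjusted p = 0.804). The 2 highest controls were both from L314 to L316, and in those titles alone the mean was 1.93 in the mutant against 3.46 in controls. In L324 to L328 it was 1.37 against 1.75. Slco3a1 was at 1.24 to 2.14 in controls and 1.52 to 3.52 in mutants (0.39 ± 0.18, adjusted p = 0.804), with overlap. Abca4, a retinoid flippase known from photoreceptors, was at 9.41, 9.81, 6.30 and 4.09 in controls and at 2.19, 2.19, 5.89 and 6.66 in mutants (-0.74 ± 0.35, adjusted p = 0.814), with overlap. In L314 to L316 the only mutant was at 2.19 against a control mean of 9.61. In L324 to L328 the means were 4.91 and 5.20.

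Mutant replicates 1 and 2 were the lowest for Abca4 and the highest for Slco3a1 and Slc22a26 among mutants on chow. The same livers had the highest summed acute-phase RNA, at 24677 and 96138 beside 13383 and 12508 in the other mutants and 9646 to 13000 in controls, and the highest neutrophil sum, at 2418 and 5333. Their part in these differences was not tested. Without mutant replicate 2, 0 of 50 genes had an unadjusted p under 0.05 (all genes 3.34%), and the difference of Slc22a26 was 0.53 and that of Slco3a1 0.24. With library weights the difference of Abca4 was -0.44 and that of Slco3a1 0.22. The count was 1 without mutant replicate 1 (all genes 4.28%), 2 without control replicate 1 or 3 (4.09% and 4.87%), and 7 without mutant replicate 4 (8.72%).

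The same comparison on HFD gave no gene past the adjusted test either (all genes 0.0157%, 2 of 12704). The unadjusted p was under 0.05 for 8 genes (16%; all genes 8.6%), of which 6 were higher in mutants (all genes 4.77%) and 2 lower (3.83%). The groups did not overlap for 4 (8%; all genes 2.69%). The median log2 difference was 0.11 (all genes 0.02), with 32 genes above 0 and 18 below. Of 14 uptake carriers, 12 were above 0, with a median of 0.18, beside 52.9% of all genes above 0. Within L231 to L234, and likewise within L338 to L342, 6 of the 14 were above 0 and 8 below. Their summed level in L231 to L234 was 955 to 1144 in control replicates 1 to 3 and 1028 in mutant replicate 1. In L338 to L342 it was 1545 in control replicate 4 and 1466 to 1600 in mutant replicates 2 to 4. The sum thus separated by title series and not by genotype. Slco1b2 was its largest part, with means of 393 and 615 in these series.

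Abca8a, a lipid transporter of the chromosome 11 cluster, was at 60.3, 54.3, 86.1 and 90.3 in controls and at 48.7, 41.9, 35.2 and 42.5 in mutants. There was no overlap, and mutants were lower within both title series, at 48.7 against a mean of 66.9 and at a mean of 39.9 against 90.3. The log2 difference was -0.75 ± 0.25 (adjusted p = 0.527, exact permutation p = 0.0286) and -0.79 ± 0.29 with the title series in the fit. The log2 differences of its neighbours Abca6, Abca8b, Abca9 and Abca5 were 0.50, 0.26, 0.14 and 0.34, and with the title series in the fit they were -0.02, 0.01, -0.03 and 0.03.

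Slc22a15, a carrier of zwitterions, was at 7.83, 7.77, 7.68 and 7.54 in controls and at 7.05, 6.52, 5.68 and 4.23 in mutants. Again there was no overlap, and controls varied little. Their log2 difference was -0.36 ± 0.15 (adjusted p = 0.567) and -0.27 ± 0.16 with the series in the fit. Without mutant replicate 4, the lowest, it was -0.23. Slco3a1 and Abca3 also did not overlap, with mutants higher in both. Slco3a1 was at 1.37 to 1.70 in controls and 2.13 to 2.35 in mutants, and Abca3 at 89.3 to 92.9 and 94.3 to 102.8.

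The remaining named differences on HFD were smaller with the title series in the fit. Abcc4, which exports bile acids and cyclic nucleotides, was at 1.65, 1.45, 1.61 and 0.871 in controls and at 1.36, 3.43, 2.71 and 5.13 in mutants. Mutant replicate 1 lay among the controls. The log2 difference was 0.73 ± 0.24 (adjusted p = 0.527). In L231 to L234 the mutant was at 1.36 against a control mean of 1.57, and in L338 to L342 the mutant mean was 3.75 against 0.871.

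Slc22a23 was at 29.9, 21.9, 23.8 and 35.5 in controls and at 27.2, 47.0, 45.6 and 45.5 in mutants (0.55 ± 0.19, adjusted p = 0.527). Its difference was 0.24 ± 0.15 with the series in the fit. Slc22a27 was at 13.9 to 29.7 in controls and at 20.9, 47.0, 46.3 and 42.9 in mutants (0.66 ± 0.27, adjusted p = 0.564), and 0.37 ± 0.29 with the series and 0.43 without control replicate 1. For both genes mutant replicate 1 was the lowest mutant. Slco1a4 and Abcc9 also had an unadjusted p under 0.05, and their log2 differences of 0.46 and 0.54 became 0.12 and 0.14 with the series in the fit.

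Calls in this comparison moved most with 2 livers. Without mutant replicate 1, Abcc4 (0.97 ± 0.21, adjusted p = 0.0382) and Slc22a23 (0.73 ± 0.16, adjusted p = 0.0443) passed the adjusted test (all genes 1.11%), and 14 genes reached an unadjusted p under 0.05 (all genes 20.1%). Without control replicate 4, 0 passed the adjusted test (all genes 0.0394%) and 17 had an unadjusted p under 0.05 (all genes 23.9%). The latter number was 4 or 5 without any other single HFD liver (all genes 4.49% to 5.8%). When library weights were estimated from the data, these livers received 0.329 and 0.228, the lowest of all 16, and 19 genes passed (38%; all genes 30.9%). Both are the livers whose genotype is in the minority in their title series. Of the 19 genes, Slc22a23 was at 0.84, Abca6 at 0.88 and Slco1a4 at 0.75 on the log2 scale.

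**Figure D3:**
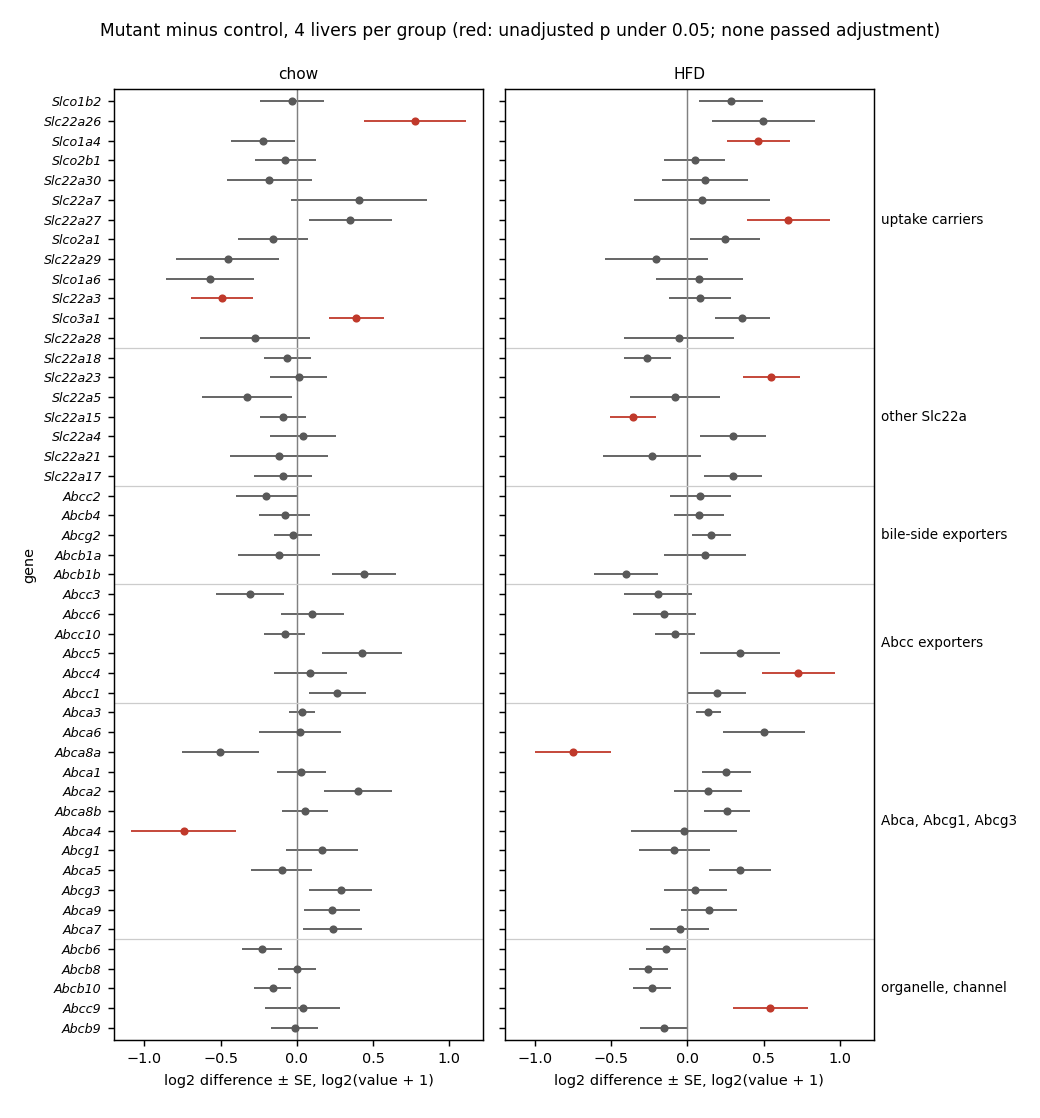
Log2 difference, mutant minus control, of 48 of the 50 genes on chow (left) and HFD (right), by role; points are limma estimates on log2(value + 1), bars are ± SE, and red marks an unadjusted p under 0.05. Of the genes shown, 4 were red on chow and 7 on HFD, and 0 passed adjustment in either.

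The diet comparison in controls asked what 17 weeks of HFD goes with in livers of the reference genotype. No gene of the 50 passed the adjusted test, and none of 12704 genes did (0%). Of the 50 genes, 11 reached an unadjusted p under 0.05 (22%; all genes 12.9%), of which 4 were higher on HFD (all genes 6.4%) and 7 lower (6.52%). The groups did not overlap for 4 genes (8%; all genes 6.36%). The median log2 difference was -0.10 (all genes -0.01), with 17 genes above 0 and 33 below.

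Slco1a4 was at 102.7, 126.7, 155.0 and 128.0 on chow and at 68.7, 67.1, 75.8 and 102.0 on HFD. The groups came close but did not overlap, and the highest HFD liver was control replicate 4. This gave a log2 difference of -0.71 ± 0.21 (adjusted p = 0.216, exact permutation p = 0.0286). Its relative Slco1a6 was at 7.29, 4.27, 5.39 and 4.47 on chow and at 0.717, 3.07, 3.56 and 3.73 on HFD, also without overlap (-0.83 ± 0.29, adjusted p = 0.271). Without control replicate 1 on HFD, the lowest liver, this difference was -0.49. Slco2a1 was at 17.0, 26.7, 25.8 and 26.2 on chow and at 12.4, 14.1, 11.9 and 21.6 on HFD (-0.66 ± 0.23, adjusted p = 0.277).

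Abcc6 was at 65.9, 64.1, 76.3 and 78.3 on chow and at 88.0, 139.1, 130.6 and 91.2 on HFD. All HFD livers were above all chow livers (0.63 ± 0.21, adjusted p = 0.258, exact permutation p = 0.0286). Abcb9, a lysosomal peptide transporter, was the other gene higher on HFD without overlap, at 1.23 to 1.61 and 1.64 to 1.96. Slc22a29 averaged 4.62 ± 2.98 (SD, n = 4) on chow and 8.84 ± 3.91 on HFD, with overlap.

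In the chromosome 11 cluster, Abca8b was at 19.7, 21.6, 22.6 and 18.0 on chow and at 13.8, 11.9, 12.6 and 19.3 on HFD (-0.50 ± 0.15, adjusted p = 0.225). Abca5, a lysosomal member, was at 2.59 to 4.48 and 1.69 to 2.92 (-0.55 ± 0.20, adjusted p = 0.292). Only control replicate 4 of the HFD livers reached the chow range in both genes. Abca1 averaged 30.2 ± 4.98 on chow and 22.5 ± 6.20 on HFD, and in it too control replicate 4 was the highest HFD liver, at 31.7.

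Without control replicate 4, Abca1 (-0.59), Abca8b (-0.64), Slco1a4 (-0.84), Slco2a1 (-0.83) and Abcb8 (0.43) passed the adjusted test, with adjusted p between 0.0219 and 0.0398 (all genes 7.28%), and 17 genes reached an unadjusted p under 0.05 (all genes 26.7%). That number was 7 without control replicate 3 on HFD (all genes 8.43%) or control replicate 4 on chow (11.4%). With library weights, where control replicate 4 on HFD received 0.228, 13 genes passed (26%; all genes 17.8%). Without control replicate 4, all HFD controls were from L231 to L234. Abca1, Abca8b, Slco1a4 and Slco2a1 were also lower, and Abcb8 higher, in L231 to L234 than in L338 to L342. Diet and title series cannot be told apart in these calls.

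In mutants, 0 of 50 genes passed the adjusted test between diets, and 0% of all genes did. An unadjusted p under 0.05 was found for 7 genes (14%; all genes 6.86%), of which 4 were higher on HFD (all genes 2.71%) and 3 lower (4.16%). The groups did not overlap for 1 (2%; all genes 3.53%). The median log2 difference was -0.01 (all genes -0.01). Of 12 lipid transporters 10 were below 0, with a median of -0.18, and of 5 bile-side exporters 4 were above 0, with a median of 0.21. Among all genes 47.7% were above 0.

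The gene without overlap was Slc22a29, at 3.72, 1.95, 2.89 and 2.54 on chow and at 9.39, 6.97, 5.99 and 5.97 on HFD. Every HFD liver exceeded every chow liver. The log2 difference of 1.099 ± 0.336 (SE) was the highest of this comparison (95% interval 0.39 to 1.81, adjusted p = 0.597, exact permutation p = 0.0286). Its near-identical relative Slc22a27 averaged 26.9 ± 6.23 (SD, n = 4) and 39.3 ± 12.4. As stated above, the division of signal between these genes is uncertain. In mutant replicate 1 on HFD, Slc22a29 was the highest of its group at 9.39 and Slc22a27 the lowest at 20.9.

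Slc22a26 averaged 169 ± 66.7 (SD, n = 4) on chow and 98.4 ± 40.9 on HFD (-0.84 ± 0.34 (SE), adjusted p = 0.687), with overlap. Slc22a15 averaged 8.04 ± 1.29 and 5.87 ± 1.23 (-0.40 ± 0.15, adjusted p = 0.639), and Abcb6 34.1 ± 6.42 and 42.9 ± 4.46 (0.34 ± 0.13, adjusted p = 0.673). Abcb1b averaged 3.37 ± 0.803 and 2.12 ± 0.818 (-0.51 ± 0.21, adjusted p = 0.689). Without mutant replicate 1 on HFD the difference of Slc22a26 was -0.45. With library weights it was -0.33 and that of Abcb6 was 0.18. Without mutant replicate 2 on chow, 4 genes had an unadjusted p under 0.05 (all genes 5.35%). With library weights 1 of the 50 genes passed the adjusted test (2%; all genes 0.0708%).

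**Figure D4:**
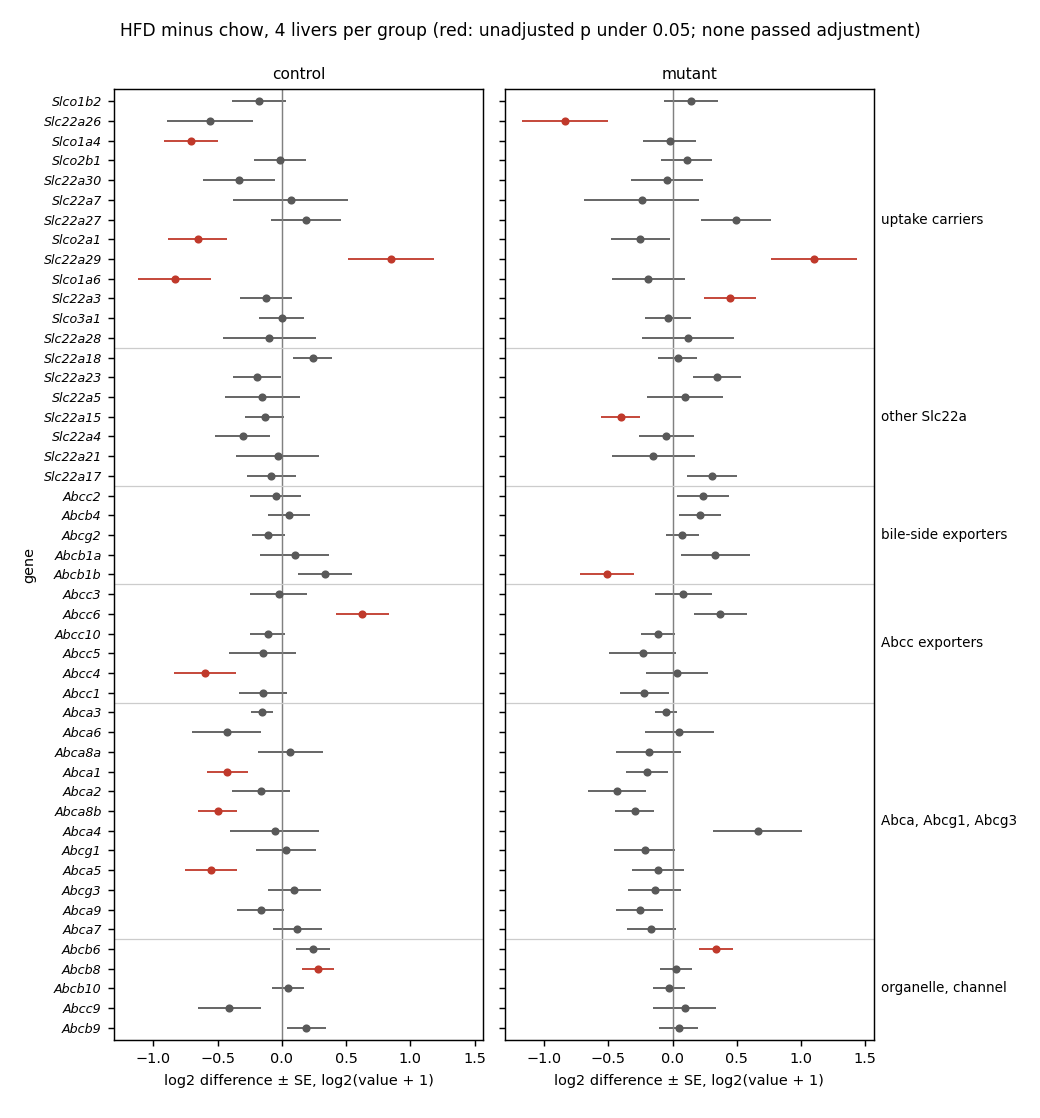
Log2 difference, HFD minus chow, of 48 of the 50 genes in controls (left) and mutants (right), by role; points are limma estimates on log2(value + 1), bars are ± SE, and red marks an unadjusted p under 0.05. Of the genes shown, 10 were red in controls and 6 in mutants, and 0 passed adjustment in either.

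The interaction compared the genotype difference on HFD with that on chow. No gene of the 50 passed the adjusted test (all genes 0%), and 2 had an unadjusted p under 0.05 (4%; all genes 4.21%). Abcb1b was at 2.95, 1.70, 2.14 and 2.08 in controls and at 3.11, 2.93, 4.57 and 2.89 in mutants on chow. On HFD it was at 3.23, 2.31, 2.43 and 4.43 in controls and at 1.16, 2.28, 1.92 and 3.13 in mutants. Mutants thus had the higher mean on chow and the lower mean on HFD, with overlap in each diet, and the interaction was -0.85 ± 0.30 (adjusted p = 0.895). Slco1a4 had means of 128 and 110 in controls and mutants on chow and of 78.4 and 111 on HFD (interaction 0.69 ± 0.29, adjusted p = 0.895, and 0.40 ± 0.21 with the title series in the fit). The number of genes with an unadjusted p under 0.05 was 8 without mutant replicate 1 (all genes 10.2%) and 11 without control replicate 4 on HFD (13.9%). It was 1 without control replicate 1 or 2 or mutant replicate 3 or 4 on HFD or mutant replicate 2 on chow (all genes 2.71% to 3.9%).

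**Figure D5:**
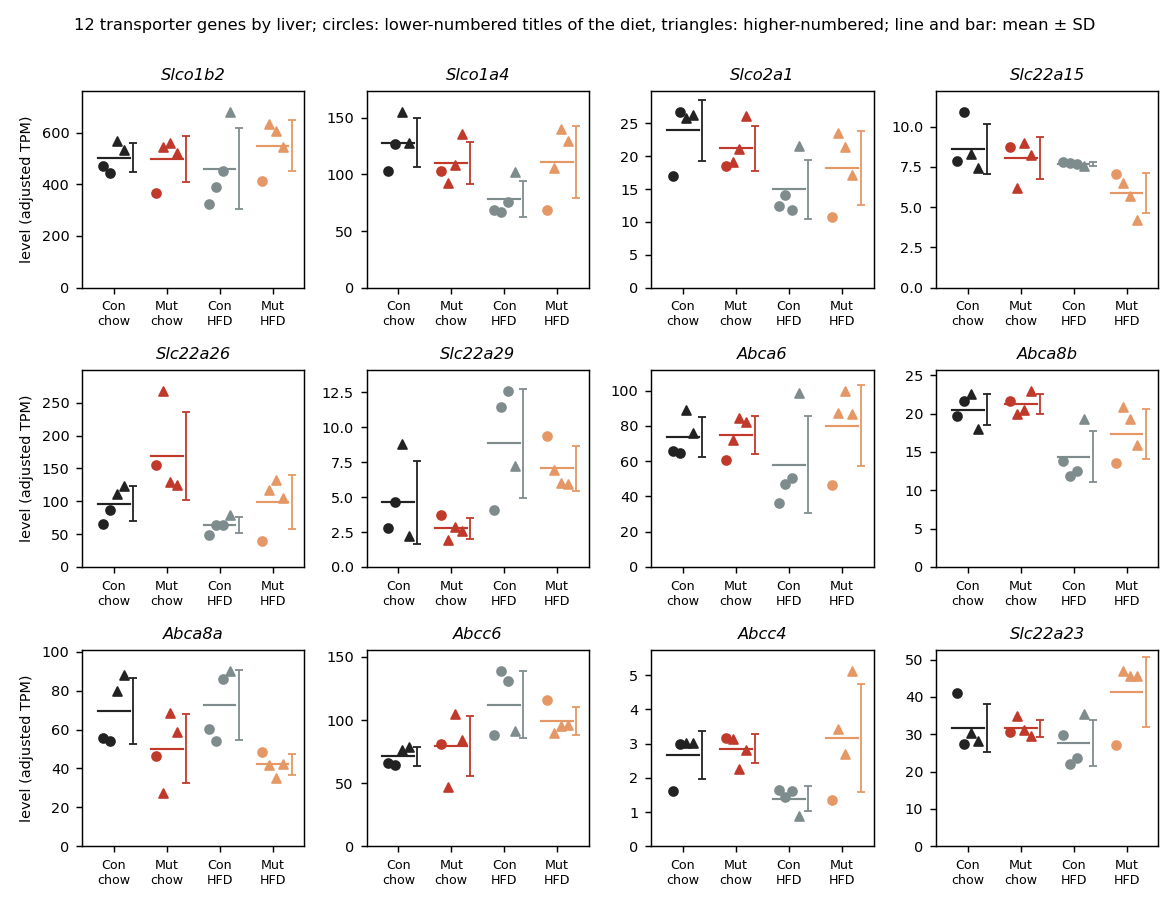
Levels of 12 transporter genes in each liver in size-factor-adjusted TPM, from 0; circles are livers of the lower-numbered title series within each diet and triangles those of the higher-numbered series, with lines at group means and bars of ± SD (n = 4). For Abca6 and Slco1b2 the single triangle among HFD controls (98.4 and 679.1) lies with the HFD mutants, and the single circle among HFD mutants (46.7 and 410.7) with the controls.

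Of the 4 genes set aside by rule, none passed the adjusted test. At an unadjusted p under 0.05, 1 was higher on HFD in controls (all genes 6.4%), Abcg5, a subunit of the sterol exporter to bile (53.7 and 80.6). In mutants 1 was lower on HFD (all genes 4.16%), Abcb11, the bile salt export pump (148 and 122). Of 15 other transport genes tested, 1 was higher (all genes 4.23%) and 1 lower (1.85%) in mutants on chow at an unadjusted p under 0.05. These were the nucleoside carrier Slc28a2 and the bile acid carrier Slc10a2. On HFD 1 was higher (all genes 4.77%) and 2 were lower (3.83%). These were Abcd2, a peroxisomal transporter of very long-chain fatty acids, and Slc10a2 and Slc51b, bile acid carriers. Abcd2 was at 9.22 to 31.7 in controls and 17.0 to 44.3 in mutants, with overlap (limma adjusted p = 0.527). Slc51b was at 2.27 to 5.42 and 1.05 to 3.49, also with overlap (adjusted p = 0.548). The title series was not in the fit. On chow Slc10a2 averaged 10.7 ± 2.04 (SD, n = 4) in controls and 6.97 ± 2.49 in mutants (log2 difference -0.59, adjusted p = 0.804), and on HFD 11.4 ± 2.22 and 4.69 ± 1.97 (-1.17, adjusted p = 0.346). The interaction was -0.58 ± 0.36 (SE, adjusted p = 0.895). At the same unadjusted level, Slc10a1, the main sodium-coupled carrier of bile acids into hepatocytes, and Abcd2 were lower on HFD in controls (all genes 6.52%).

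Of 20 genes for regulators of transporters, none passed the adjusted test. On chow 0 had an unadjusted p under 0.05 (all genes 6.08%). On HFD 2 were higher in mutants (all genes 4.77%), Ahr (the dioxin receptor) and Esr1. Another 2 were lower (3.83%), Nr1i2 (the pregnane X receptor) and Nr0b2 (the small heterodimer partner). The groups overlapped for each of these genes, and the title series was not in the fit. Between diets, in mutants Nr1i3 (the constitutive androstane receptor) was higher on HFD (all genes 2.71%) and Stat5b lower (4.16%). Of 12 acute-phase genes, 6 were higher in mutants on chow at an unadjusted p under 0.05 (all genes 4.23%). The median log2 difference of the 12 was 1.29. Their summed level was raised mainly in mutant replicates 1 and 2, at 24677 and 96138. The other mutants were at 13383 and 12508, and controls at 9646 to 13000.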

How the data were processed

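Per the labels and the study's methods, the authors assigned reads of 16 liver libraries to mouse transcripts (mm10) with kallisto in gene mode and used sleuth. Tool versions and the annotation release are not given in the sources used here. The deposited signal per gene is, judged from its values, TPM adjusted between libraries by size factors. Kallisto divides reads between near-identical transcripts by estimation. The TPM scale keeps no depth, so no counting interval is given, and precision rests on the spread between livers. Where labels do not describe litters or batches, p-values measure only that spread.

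Members and lists were chosen with earlier results of these data known. A count test had been foreseen for counts only. Values were instead tested on log2(value + 1), a scale that understates changes of low genes, using limma (version 3.58.1, R 4.3.3). Genes at 1 or more in at least 4 libraries (12704 of 15544) entered 1 fit of 4 group means without covariates, with a variance trend. P-values of 5 contrasts were adjusted by Benjamini and Hochberg over all genes tested, with a threshold of 0.05. The script was tested on simulated data. Exact permutation tests were two-sided over 70 splits of 4 against 4. In each contrast of 2 groups at most 6 members, and in the interaction at most 4, with the smallest unadjusted p under 0.05 were named with full statistics. Some genes that entered the counts are not reported here by name. Genes named beyond these were chosen after their values were seen. Gene positions came from GENCODE M21 on GRCm38, and transcripts were compared with blastn version 2.17.0. Alternatives covered scaling, pseudocount, the filter on low values, library weights, fits of only the groups compared, the title series as a term, and leaving out each liver.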

Additional observations from a re-analysis of the deposited data

Results flagged for a closer look

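In 13 of 132 group and gene combinations, over 33 members, a single liver stood far from the other 3 of its group by Dixon's test, which by chance marks about 1 in 20. The combinations share livers and are not independent, so the 13 cannot be weighed against that rate. Mutant replicate 1 on HFD had the lowest Slco2b1 at 72.7 (others 115.4 to 124.1), Slc22a23 at 27.2 (others 45.5 to 47.0), Slc22a27 at 20.9 (others 42.9 to 47.0) and Abcb1a at 4.91 (others 8.89 to 9.60). The same liver had the highest Abcc3 at 161.8 (others 95.8 to 101.0) and Slco3a1 at 2.35 (others 2.13 to 2.16). Control replicate 4 on HFD had the highest Abca1 at 31.7 (others 18.2 to 20.4), Abcg2 at 27.5 (others 17.4 to 19.1) and Abca5 at 2.92 (others 1.69 to 1.89). These are the livers of the less frequent genotype in their title series.

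On chow, control replicate 1 had the lowest Slco2a1 at 17.0 (others 25.8 to 26.7) and Abcc4 at 1.60 (others 2.99 to 3.02). Mutant replicate 3 had the lowest Slc22a27 at 17.7 (others 28.9 to 31.1) and the highest Abcb1b at 4.57 (others 2.89 to 3.11).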

How the results depend on the processing

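No paired analysis was possible because the labels give no replicate numbers, and numbers in sample order do not pair livers. The 22 named differences kept their direction in all 348 alternative values, and 16 of these passed the adjusted threshold, of which 11 were with library weights. The differences were named for a small p in these livers and the alternatives reuse them, so a kept direction was likely in advance. The title series was not a term in the diet contrasts. Within L231 to L234 alone, with 1 mutant, Abcc4 (-0.12) and Slc22a27 (-0.13) had the reverse direction. With library weights the members past the adjusted test numbered 19 for the HFD genotype contrast (all genes 30.9%), 13 for diet in controls (17.8%) and 1 for diet in mutants (0.0708%). At an unadjusted p under 0.05 they numbered 26 for the HFD genotype contrast (all genes 43.1%), 23 for diet in controls (33.6%) and 18 for the interaction (25.7%). With each library scaled to the same total the unadjusted count of the interaction was 4 (all genes 5.27%). A filter of 5 or more, which left 35 members, gave unadjusted counts of 2 for genotype on chow (all genes 5.35%), 7 for diet in controls (14.6%) and 1 for the interaction (4.08%). With the title series as a term the unadjusted counts were 4 for genotype on HFD (all genes 4.47%) and 1 for the interaction (3.51%). Leaving out each liver in turn gave 0 to 2 members past the adjusted test for genotype on HFD (all genes 1.11% at the 2). It gave 0 to 5 for diet in controls (all genes 7.28% at the 5), and 0 in the other contrasts. The unadjusted counts then ranged from 0 to 7 for genotype on chow, 4 to 17 for the HFD genotype contrast and 7 to 17 for diet in controls. They ranged from 4 to 8 for diet in mutants and 1 to 11 for the interaction. The share of all genes rose and fell with these counts, as given with the contrasts above, so the ranges are not particular to the members. For the 8 in mutants that share is not given. The causes were not tested. Depth is unknown, and 24 members averaged under 10, where log2(value + 1) understates differences.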
